A study of Mus musculus with 6 samples.

Results

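Isolated Zfp genes are the zinc finger genes of the mouse genome that stand apart from the large zinc finger clusters. They were taken as protein-coding genes of chromosomes 1 to 19 in the GENCODE annotation of mm10 whose symbol is Zfp followed by digits, and whose start site has fewer than 2 other such start sites within 500 kb. The rule gave 141 genes out of 358 Zfp genes and 20807 protein-coding genes on these chromosomes. Of the 141, 110 had no other Zfp start site within 500 kb and 31 had 1. They lay on all 19 chromosomes, with 14 each on chromosomes 8 and 11. The rule reads symbols alone, so a zinc finger gene with another kind of name can lie beside a member. It uses no ChIP value.

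ChIP-seq for H3K9me3, histone H3 with 3 methyl groups on lysine 9, was made in neural stem cells from the fetal cerebral cortex of C57BL/6J mice, to ask how the mark behaves when PHF8, a histone demethylase, is depleted. All cells were infected with lentivirus and selected with puromycin. The shCTR cells carried a scramble shRNA and the shPHF8 cells carried 1 shRNA against PHF8, with 2 ChIP libraries of 50-base single-end reads and 1 input per condition. No source used here says whether the 2 libraries of a condition came from separate cultures, so the spread between them may be technical. The deposited peak lists give positions with no height, and read counts cannot be taken from them. The reported quantity is the number of bases of a gene lying under peaks. It rises with the depth of a library and with the settings of the peak caller, and in a population of cells it does not separate more cells carrying the mark from more mark per cell. No read count stands behind a position, so no counting interval could be given.

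Peaks numbered 53309 in shCTR replicate 1, 54110 in shCTR replicate 2, 44318 in shPHF8 replicate 1 and 55557 in shPHF8 replicate 2. Median widths were 2400, 2400, 4200 and 2800 bp in the same order, and the covered length of chromosomes 1 to 19 was 156.3, 159.1, 218.8 and 196.5 Mb. The shPHF8 libraries therefore covered 1.317 times the length of the shCTR libraries, and shPHF8 replicate 1 had the fewest and widest peaks. In the paper's mapping counts for the H3K9me3 libraries, shPHF8 replicate 2 had the fewest mapped reads. The part of depth in the covered lengths was not tested. Phf8 itself had no covered base in any library, which says nothing about the knockdown. Of 9 neural stem cell genes, Pax6 and Hes5 had a peak in the window of 1 kb either side of the start site in at least 1 library. Of 8 genes of other cell types, Pecam1, Myod1 and Rbfox3 had one. With so few marked windows, the peak lists are a weak check of cell identity.

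Zfp genes mostly encode C2H2 zinc finger proteins, in which a repeated module of about the same length folds around a zinc ion and reads a few bases of DNA. Modules follow each other in a tandem array joined by a short linker with the residues TGEKP, and the array is often encoded by a single last exon. Many of these proteins also carry a KRAB domain, which recruits TRIM28 and through it the H3K9 methyltransferase SETDB1 and HP1 proteins. H3K9me3 is a mark of heterochromatin, and the last exons of zinc finger genes are among the places in mammalian genomes known to carry it.

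The sequences in which the mark lay are shown first for the arrays. Fingers were searched in the longest coding sequence of each gene as the pattern of 2 cysteines and 2 histidines with 2 to 4 residues between the cysteines, 12 between cysteine and histidine and 3 to 5 between the histidines. Each printed module runs for 84 bases of GRCm38.p6, from the first cysteine codon of a finger to the base before that of the next, on the coding strand, with the linker codons in capitals, which encode TGEKP or, in Zfp317, the variant TGERP. Zfp951 was shown because it had the most covered body of all members. Its fingers 1 to 3 lay at chr5:104815084-104815167, chr5:104815000-104815083 and chr5:104814916-104814999 on the minus strand, and every base was under a peak in all 4 libraries.
Zfp951 finger 1: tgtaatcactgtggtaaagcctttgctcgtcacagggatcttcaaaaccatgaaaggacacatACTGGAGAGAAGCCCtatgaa
Zfp951 finger 2: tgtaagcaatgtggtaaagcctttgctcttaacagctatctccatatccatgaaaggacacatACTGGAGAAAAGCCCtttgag
Zfp951 finger 3: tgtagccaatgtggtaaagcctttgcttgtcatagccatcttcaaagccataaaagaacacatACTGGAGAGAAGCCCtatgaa
Zfp788 was shown as the member with the most fingers among the 8 most covered bodies. Its fingers 3 and 4 lay at chr7:41648827-41648910 and chr7:41648911-41648994 on the plus strand and were also covered in full in all 4 libraries.
Zfp788 finger 3: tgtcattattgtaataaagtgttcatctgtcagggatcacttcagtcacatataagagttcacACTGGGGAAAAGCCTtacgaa
Zfp788 finger 4: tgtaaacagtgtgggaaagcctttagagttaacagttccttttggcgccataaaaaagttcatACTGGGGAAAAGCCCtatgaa
Zfp317 was shown as a contrast, since it has a KRAB box and 13 fingers but no covered base in any library. Its fingers 3 and 4 lay at chr9:19647065-19647148 and chr9:19647149-19647232 on the plus strand.
Zfp317 finger 3: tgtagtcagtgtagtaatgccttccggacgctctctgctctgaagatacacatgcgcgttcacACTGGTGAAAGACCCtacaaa
Zfp317 finger 4: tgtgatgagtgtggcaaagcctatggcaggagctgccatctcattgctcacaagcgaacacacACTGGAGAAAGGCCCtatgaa
Over all 84-base modules of a gene, the median identity between pairs was 82.7% in Zfp951 (9 modules, range 76.2 to 98.8%), 65.5% in Zfp788 (22 modules, range 46.4 to 96.4%) and 57.7% in Zfp317 (12 modules, range 42.9 to 69.0%). The modules of the 2 covered genes were more alike than those of the unmarked gene, but these are 3 genes picked for display and no rule over members was drawn from them.

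Summed over the members, the mark was found at the 3′ ends of isolated Zfp genes far more than at their start sites. The last exon here is the final exon of the protein-coding transcript with the longest coding sequence. Last exons were 25.5, 25.8, 30.3 and 25.8% covered in shCTR replicates 1 and 2 and shPHF8 replicates 1 and 2, summed over the 141 genes. The windows around their start sites were 7.40, 4.83, 5.30 and 5.03% covered. Over all 20722 protein-coding genes with a coding transcript the last exons were 8.24, 8.78, 10.4 and 9.44% covered and the start-site windows 6.81, 7.56, 7.17 and 6.50%. The last exons of isolated Zfp genes thus stood above those of all genes in every library, while their start-site windows stood above in shCTR replicate 1 and below in the other 3 libraries. Genes are not replicates of a condition, and no test was made between groups of genes.

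Counted by gene, 32 of the 141 last exons (22.7%) were at least 50% covered in each of the 4 libraries, against 4.55% of all protein-coding genes, and 15 were covered in full in all 4. The start-site base itself lay under a peak in all 4 libraries in 4 members, against 3.78% of all genes. The covered share of the last exon was above that of the start-site window in all 4 libraries in 33 members (23.4%), against 4.40% of all genes. The reverse held in 2 members, Zfp541 and Zfp800, against 3.34%. Of the 32 covered last exons, 21 had no covered base in the start-site window in any library and 29 had the start-site base uncovered in every library.

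The plot of peaks against distance shows the same contrast along the genes. The share of isolated Zfp genes under a peak at the start site was 6.38, 4.96, 4.96 and 4.96%, and its lowest values, 3.55 to 4.96%, lay within 750 bp of it. It reached its highest values, 19.1 to 24.8%, at 6250 to 7000 bp downstream. Counted from the gene end, the highest values were 21.99 to 27.66%, at 1750 to 3000 bp before it. Clustered Zfp genes had as low a share at the start site, 4.61 to 5.53%, and reached 41.5 to 48.9% before the gene end. Other protein-coding genes stayed between 6.10 and 11.2% at every distance plotted.

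**Figure D1:**
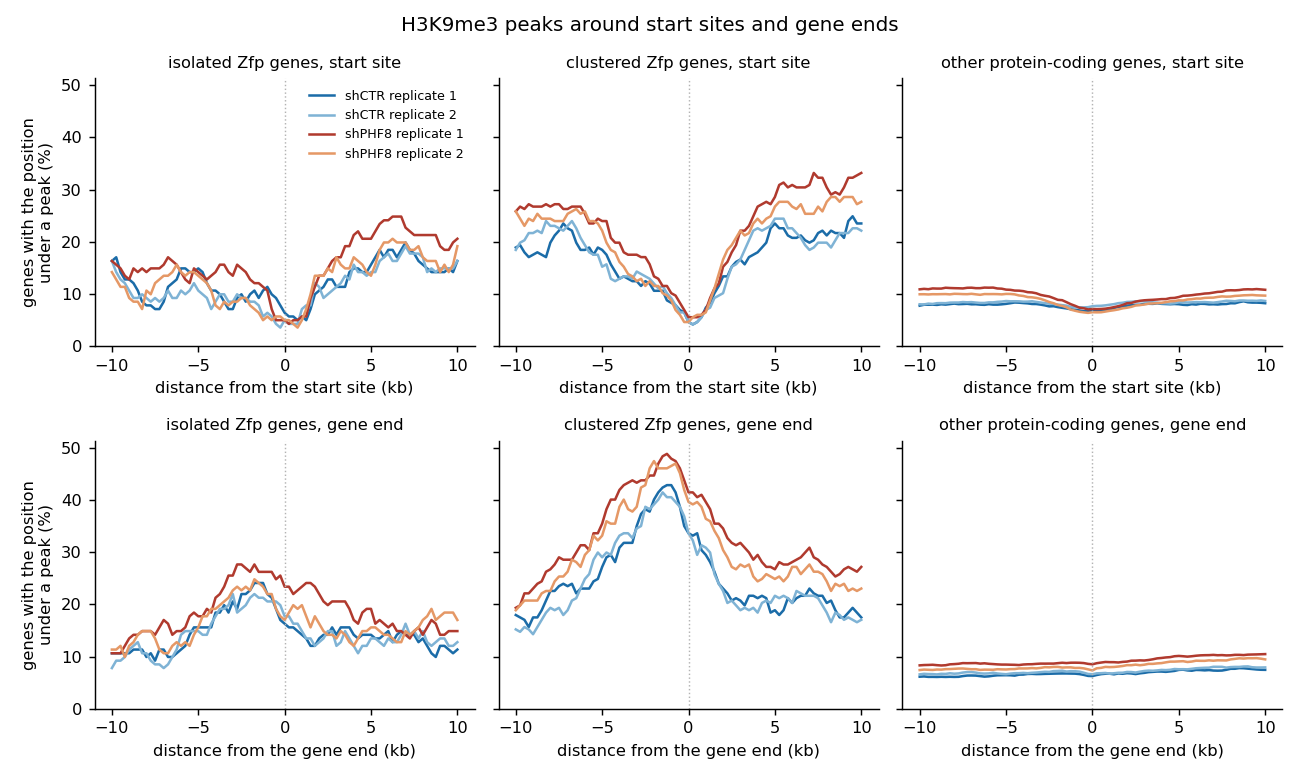
Share of genes (%, vertical axis) whose base at a given distance in kb (horizontal axis) from the start site (top) or gene end (bottom) lay under an H3K9me3 peak, for isolated Zfp, clustered Zfp and other protein-coding genes, with 1 line per library. Isolated Zfp genes dip to 3.55 to 4.96% around the start site and peak at 21.99 to 27.66% shortly before the gene end, between the higher clustered genes and the flat line of other genes.

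Summed over members, the coding bases of last exons were 41.9, 42.1, 46.8 and 42.4% covered and the 3′ untranslated bases 15.3, 15.7, 20.2 and 15.6%. Long untranslated parts weigh heavily in the second sum. Gene by gene, 52 coding parts and 53 untranslated parts held a peak in at least 1 library. At least 50% covered in all 4 libraries were 35 of 135 coding parts and 25 of 140 untranslated parts. Of 54 last exons with both parts and a covered base, the coding part was covered to a larger share in all 4 libraries in 6. The untranslated part was so in 1, and 47 showed neither order. An exon covered in full, or not at all, in any 1 library falls among these 47 by construction, so they do not show that the parts were alike. Finger arrays, measured in the 133 members with a finger, were 33.1, 34.8, 38.8 and 33.5% covered. Where at least 90% of the array lay in the last exon (70 genes), the last exon was 40.9, 41.6, 49.2 and 42.9% covered. Where less of it lay there (63 genes), the last exon was 5.33, 5.38, 6.46 and 3.89% covered. Start-site windows of these 63 genes were 5.94, 4.61, 5.57 and 6.12% covered, so their last exons did not stand clearly above their start sites. Last exons of the 8 members without an array stood between those of the other classes, at 25.1, 23.9, 23.6 and 23.6%, but only 2 of the 8 held a peak. A KRAB box, searched as described below, was found in 32 of the 70 genes and 1 of the 63. The position of the array was not separated from the KRAB box. Of the 32 covered last exons, 31 held most of the coding bases of their gene. The peak over the middle of these exons had a median width of 4700, 5400, 7200 and 6000 bp, and reached past the annotated gene end in 17, 18, 22 and 21 of the 32 genes. In shCTR replicate 2 it was found in 31 of the 32.

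Fingers and the KRAB box separated the members further. The KRAB box was searched in the coding sequence by a short residue pattern, and 33 of the 141 members matched. The pattern misses diverged boxes and boxes of other transcripts, so no match does not show that a protein lacks the domain. Last exons of the 33 KRAB members were 62.0, 60.3, 66.4 and 65.6% covered and those of the other 108 were 14.4, 15.4, 19.5 and 13.8%. By number of fingers, last exons were 39.9, 39.5, 45.4 and 39.9% covered in the 55 members with 10 or more. They were 17.6, 18.8, 23.13 and 18.96% covered in the 48 with 5 to 9, and 7.63, 8.61, 11.8 and 7.94% in the 30 with 1 to 4. The 8 members with 0 fingers stood at 25.1, 23.9, 23.6 and 23.6%, above the class of 5 to 9 in every library. Only 2 of these 8 last exons held a peak in any library, so this value is that of 2 genes. Among the classes with a finger, the covered share was lower with fewer fingers in every library. With at least 5 fingers in both classes, 32 KRAB members stood at 62.9, 61.2, 67.3 and 66.6% and 71 other members at 16.6, 17.7, 22.6 and 15.6%. The difference between the KRAB classes was slightly smaller in every library when genes of few fingers were left out. Of the members with many fingers, Zfp62, with 25 fingers all in the last exon, had no covered base there. Zfp142 with 36 fingers and Zfp236 with 30 had none either, but 6.64% of the array of the first and 0% of that of the second lie in the last exon.

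**Figure D2:**
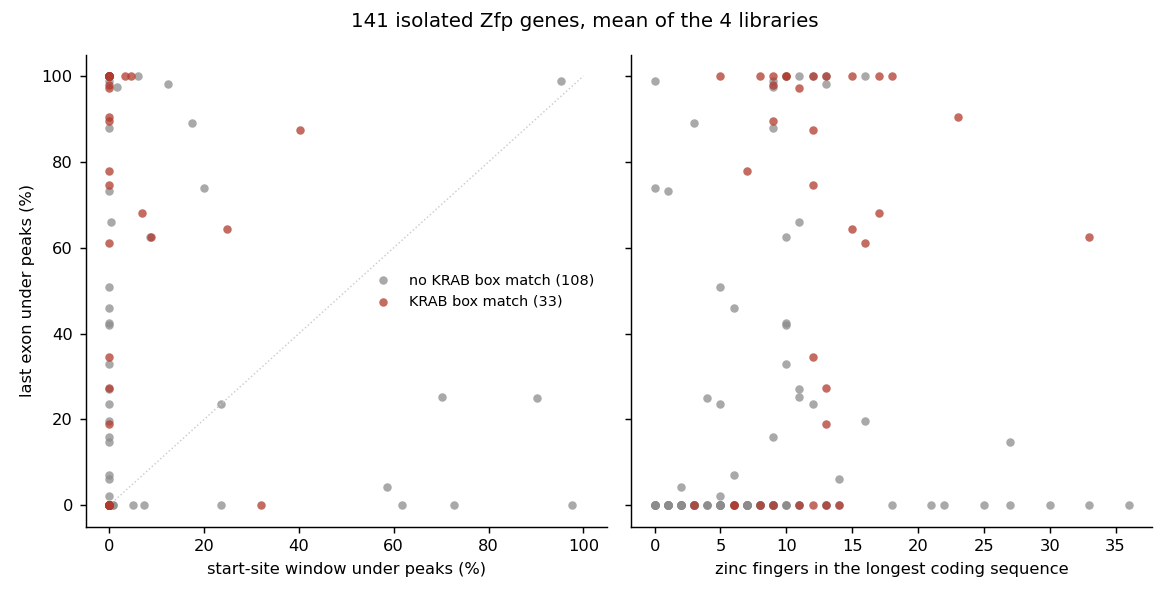
Share of the last exon under peaks (%, mean of the 4 libraries) for each of the 141 isolated Zfp genes, against the share of the start-site window (left, %) and the number of zinc fingers (right), with the 33 genes matching a KRAB box in red and the 108 others in grey. Most points with a marked last exon lie at or near 0 on the start-site axis, and many-fingered genes occur both at 0 and at 100% of the last exon.

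Of the 33 KRAB members, 19 had a last exon at least 50% covered in all 4 libraries and 9 had none covered in any library, namely Zfp9, Zfp57, Zfp317, Zfp661, Zfp825, Zfp941, Zfp967, Zfp970 and Zfp973. Short reads cannot be placed in copies of a sequence, so the share of 50-base windows of each last exon that also occur elsewhere in the genome was computed. Every such window was non-unique in Zfp967 and Zfp973, and 66.5% were in Zfp970. Among the 23 KRAB members with up to 10% of windows non-unique, 5 had an unmarked last exon, and the class was 62.5, 62.9, 71.5 and 70.1% covered. Among the 10 with more, 4 were unmarked, and the class was 59.96, 50.6, 46.7 and 48.7% covered. How the authors' alignment treated reads with several positions is not given for these libraries in the sources used here, and the part of read placement in these values was not tested. Of the 32 covered last exons, 16 had no non-unique window at all.

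The 13 covered last exons without a KRAB match were those of Zfp3, Zfp37, Zfp64, Zfp69, Zfp90, Zfp105, Zfp189, Zfp281, Zfp286, Zfp358, Zfp503, Zfp706 and Zfp957. Zfp281, a transcription factor of pluripotent cells with 3 fingers found by the pattern, has nearly its whole gene in the last exon, of which 4533, 4253, 4653 and 3600 of 4786 bp were covered. Zfp503, a co-repressor of the NET family in which the pattern found no finger, had 2042, 1842, 1842 and 1842 of 2558 bp covered. Zfp706, a small protein with 1 finger, had 1974, 2374, 3897 and 3174 of 3897 bp covered. The mark on last exons was thus not limited to genes with long arrays.

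**Figure D3:**
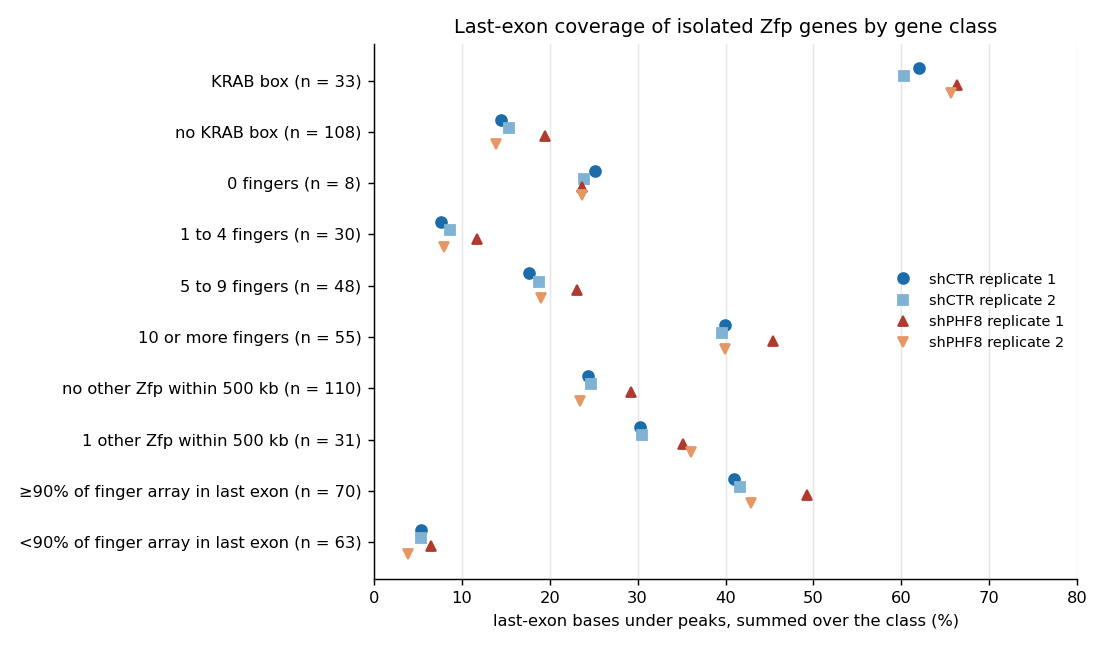
Share of last-exon bases under peaks (%, horizontal axis), summed over the isolated Zfp genes of each class, with 1 symbol per library (circles and squares shCTR, triangles shPHF8). KRAB members stand at 60.3 to 66.4% and the others at 13.8 to 19.5%, and the libraries of a class lie closer together than these classes do.

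Members with 1 other Zfp start site within 500 kb had last exons 30.2, 30.5, 35.2 and 36.1% covered, and those with none 24.4, 24.7, 29.2 and 23.5%. Clustered genes just outside the rule, with 2 other start sites (41 genes), stood at 46.3, 43.8, 58.0 and 51.0%, and those with 3 or more (176 genes) at 42.2, 44.6, 50.5 and 49.0%. All 217 clustered genes stood at 43.0, 44.4, 51.9 and 49.4%, with 91 last exons (41.9%) at least 50% covered in all 4 libraries. Summed over each group, isolated genes lay below clustered genes and above other genes in every library. Within the KRAB classes the order was not the same. The 149 clustered genes with a KRAB match stood at 44.9, 47.3, 52.8 and 52.55%, below the 33 isolated KRAB members in every library. The 68 clustered genes without a match stood at 38.6, 38.2, 50.0 and 42.5%, above the 108 isolated members without one. The KRAB box was more frequent with a neighbour, in 12 of 31 members against 21 of 110, and this difference in makeup was not separated from that of position. At start sites isolated and clustered genes were alike in level, with windows of clustered genes 6.02, 5.84, 6.92 and 5.81% covered.

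Whole gene bodies of isolated members were 11.53, 11.25, 13.99 and 12.55% covered, against 7.12, 7.33, 9.13 and 8.19% over all protein-coding genes and 24.2, 23.3, 31.4 and 29.8% in clustered Zfp genes. Of the 141 bodies, 95 held a peak in at least 1 library and 74 in all 4. A body without any peak was found in 46 members (32.6%), against 50.7% of all genes. Bodies at least 50% covered in all 4 libraries numbered 11 (7.80%), against 2.59%, and 10 of them also had a covered last exon.

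The 8 most covered bodies belonged to Zfp951, Zfp958, Zfp281, Zfp788, Zfp189, Zfp90, Zfp369 and Zfp358. Zfp951 at chr5:104813169-104860070 was 87.9, 88.3, 93.0 and 88.8% covered, and its last exon of 2267 bp was covered in full in every library. Zfp958 at chr8:4613167-4630231, with 13 fingers, was 84.6, 75.2, 89.3 and 90.4% covered. Zfp281 at chr1:136624901-136630053 was 89.3, 82.5, 90.3 and 69.9% covered. All 3 were marked over most of the gene in both conditions. By the rule on order given further on, Zfp951 and Zfp958 were more covered in shPHF8, by means of 1300.0 and 1700.0 bp, which turned to -10321.4 and -2270.8 bp after scaling. Zfp788 at chr7:41633203-41651530 was 65.5, 67.7, 89.1 and 86.9% covered. Zfp189 at chr4:49521176-49531517 was 63.0, 70.8, 86.2 and 78.5% covered, and Zfp90 at chr8:106415327-106426598 65.6, 60.3, 81.6 and 88.7%. In Zfp788, Zfp189 and Zfp90 both shPHF8 libraries lay above both shCTR libraries. With each library scaled to the same covered length none of these 3 kept that order, and the mean of Zfp189 turned lower in shPHF8. Zfp369 was 82.7, 59.9, 73.3 and 78.8% covered and Zfp358 59.0, 78.6, 68.8 and 69.0%, and in these the conditions overlapped.

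Start sites under the mark were few, as they were over all protein-coding genes. The 4 members with the start-site base covered in all 4 libraries were Zfp42, Zfp541, Zfp800 and Zfp957. Zfp42, also called Rex1 and known as a marker of pluripotent cells, had 2001, 1221, 2001 and 2001 of the 2001 bp of its start-site window covered. Zfp541, known from meiotic male germ cells, had 1814, 2001, 2001 and 2001 bp covered. Zfp957 had 2001, 2001, 2001 and 1632 bp covered and Zfp800 1405, 1205, 2001 and 1205 bp. In each of the 4 the conditions overlapped. Over all members, 27 windows had a covered base in at least 1 library, 8 of them in all 4, 11 in 2 or 3 and 8 in a single library. Windows with a covered base in at least 1 library were 19.15% of members, against 17.04% of all protein-coding genes. Those covered in all 4 were 5.67%, against 6.1%, so both counts lay near the share over all genes.

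Promoter sequences are shown for 2 members with a covered start site, Zfp42 and Zfp957, and for 2 with a covered last exon and an uncovered start site, Zfp189 and Zfp281. They are RefSeq promoters of GRCm38.p6, 250 bases before to 50 bases after the start, with each CG dinucleotide in capitals. By symbol 111 of the 141 members were in that table. Zfp42 lies at chr8:43306960-43307259 and Zfp957 at chr14:79247318-79247617, both on the minus strand, with 300, 241, 300 and 300 bases and 300 bases in all libraries covered.
Zfp42 promoter: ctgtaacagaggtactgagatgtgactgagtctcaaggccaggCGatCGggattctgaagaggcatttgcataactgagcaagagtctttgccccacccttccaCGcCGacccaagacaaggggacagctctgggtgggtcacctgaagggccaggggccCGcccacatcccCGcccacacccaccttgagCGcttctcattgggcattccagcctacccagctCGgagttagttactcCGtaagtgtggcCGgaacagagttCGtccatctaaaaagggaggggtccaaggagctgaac
Zfp957 promoter: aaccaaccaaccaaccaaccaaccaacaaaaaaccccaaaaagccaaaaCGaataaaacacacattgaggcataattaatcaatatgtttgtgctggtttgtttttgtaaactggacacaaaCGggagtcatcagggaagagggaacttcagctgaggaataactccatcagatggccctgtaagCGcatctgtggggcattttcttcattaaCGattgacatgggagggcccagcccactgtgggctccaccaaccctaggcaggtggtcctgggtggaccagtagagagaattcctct
Zfp189 lies at chr4:49520926-49521225 and Zfp281 at chr1:136624651-136624950, both on the plus strand, with no base covered in any library.
Zfp189 promoter: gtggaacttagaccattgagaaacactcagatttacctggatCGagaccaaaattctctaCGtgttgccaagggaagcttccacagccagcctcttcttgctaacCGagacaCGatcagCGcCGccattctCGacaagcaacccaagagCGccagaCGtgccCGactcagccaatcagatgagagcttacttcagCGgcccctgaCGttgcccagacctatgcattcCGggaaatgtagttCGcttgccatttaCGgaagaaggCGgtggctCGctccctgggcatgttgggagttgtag
Zfp281 promoter: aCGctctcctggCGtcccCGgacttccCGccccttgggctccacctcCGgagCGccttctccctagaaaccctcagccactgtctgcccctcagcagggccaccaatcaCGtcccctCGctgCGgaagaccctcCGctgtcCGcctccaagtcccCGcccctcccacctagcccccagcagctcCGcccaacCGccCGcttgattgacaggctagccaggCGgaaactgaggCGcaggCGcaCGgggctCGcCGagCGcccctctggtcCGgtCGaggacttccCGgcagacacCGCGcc
The letters CG, which read the same on both strands, occurred 11 times in the Zfp42 promoter, 4 times in that of Zfp957, 17 times in that of Zfp189 and 27 times in that of Zfp281. The median over the 32851 promoters of the table was 7, and 94.6% held at least 1. In the whole set, members whose start-site window had a CG content of at least 0.6 of that expected from its C and G content (61 genes) had windows 3.95, 1.92, 2.45 and 1.72% covered and last exons 13.8, 14.1, 16.7 and 14.02%. The 80 members below it had windows 10.0, 7.06, 7.46 and 7.55% and last exons 36.2, 36.6, 42.9 and 36.8% covered. This is a description of sequence beside the mark. Of the 33 KRAB members 29 were in the lower class, and the 2 properties were not separated.

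Depletion of PHF8 was then compared over the same genes. A gene was called more covered when both shPHF8 libraries lay above both shCTR libraries, and less covered in the opposite case. This is a description without a test, and for a summed value the exact two-sided permutation test over 2 against 2 libraries cannot go below p = 0.333. Covered bases of member bodies were 1.165 times as high in shPHF8 (exact permutation p = 0.333), but 0.884 times as high after each library was scaled to the same covered length and 0.909 times with each library restricted to its widest peaks of equal total length. Over all protein-coding genes the ratio was 1.198, and 0.910 scaled. In clustered Zfp genes it was 1.287, and 0.979 scaled. The direction for isolated genes thus depends on whether the larger covered length of the shPHF8 libraries is taken as part of the comparison. Relative to that length, 1.317 times that of shCTR, the bodies of isolated genes and of all genes gained less than the genome did. By immunostaining the paper observed an overall increase of H3K9me3 after PHF8 depletion, a level that lists of positions cannot measure.

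By gene, 39 of the 95 bodies with a peak were more covered in shPHF8 (41.1%), against a background of 27.8% of all protein-coding genes with a peak. Less covered were 7 (7.37%), against 12.8%, and in 49 the conditions overlapped. After scaling to the same covered length, 13 were more and 29 less covered (13.7 and 30.5%), against 14.9 and 29.9% of all genes, and with the widest peaks of equal total length 19 were more and 19 less covered (20.65% each), against 13.1 and 30.05% of all genes. A share of more covered bodies above the background was therefore seen in the deposited lists and at equal total length, but not after scaling. It was not particular to isolated genes. In the deposited lists 57 of 160 clustered Zfp bodies with a peak were more covered (35.6%) and 4 less (2.50%). Of the 39 bodies, 13 kept the call after scaling, 19 at equal total length and 4 under both, namely Zfp652, Zfp791, Zfp831 and Zfp950, while the mean difference changed sign in 13 after scaling and in 12 at equal total length. All 7 less covered bodies kept the call under both. Scaling can only strengthen that direction, since it lowers the shPHF8 libraries. Equal total length also favors it, since it removes peaks mainly from the longer shPHF8 lists. That these calls were kept is therefore little of a check. The 39 differences had a median of 2700 bp and ranged from 500 to 12680.5 bp. Of the 95 bodies with a peak, 26 were of KRAB members, of which 15 were more and 0 less covered, and of the other 69, 24 were more and 7 less covered. Of these 15 KRAB members 3 kept the call after scaling and 11 at equal total length. Bodies of the 33 KRAB members were 28.6, 27.2, 36.04 and 32.6% covered, and those of the other 108 members 9.39, 9.25, 11.2 and 10.0%. Spearman's rho of body coverage over the 95 genes was 0.890 between the shCTR libraries, 0.924 between the shPHF8 libraries and 0.767 to 0.819 across conditions, a description over genes that share libraries.

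The 6 bodies with the largest gain were those of Zfp950, Zfp532, Zfp652, Zfp438, Zfp64 and Zfp536. Zfp950, a KRAB gene of 17 fingers at chr19:61053840-61140840, had 15200, 16200, 28800 and 27961 covered bp, and its last exon was covered in full in all 4 libraries. Zfp652 had 19600, 16000, 29600 and 24800 covered bp and Zfp438 had 11000, 12800, 16800 and 20800, both without a covered base in the last exon or start-site window. In these 3 genes the gain lay outside the last exon. Zfp532 had 46243, 42443, 61643 and 49400 covered bp, a mean difference of 11178.5 bp that turned to -2702.1 bp after scaling. Zfp64 had 18400, 17600, 24000 and 25600 covered bp, a mean difference of 6800.0 bp that turned to -2500.0 bp at an equal covered length. Zfp536, known as a brake on neuronal differentiation, had 19400, 25400, 29000 and 26000 covered bp. Its mean difference of 5100.0 bp turned to -1730.3 bp after scaling and -11200.0 bp at an equal length.

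The 7 less covered bodies were led by Zfp366, a gene studied in dendritic cells, with 34178, 27056, 21034 and 22178 covered bp. Zfp644, whose product works with the H3K9 methyltransferases G9a and GLP, had 11000, 11800, 7000 and 7400, and Zfp608 had 31800, 30800, 27600 and 27400. Zfp488, known from oligodendrocyte differentiation, had 964, 4964, 164 and 0 covered bp. Zfp91, a ubiquitin ligase, had 2800, 1600, 0 and 0, and Zfp648 had 1489, 1289, 0 and 0. The seventh, Zfp521, had 6188, 7600, 5800 and 6000 covered bp in a gene of 285.8 kb.

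**Figure D4:**
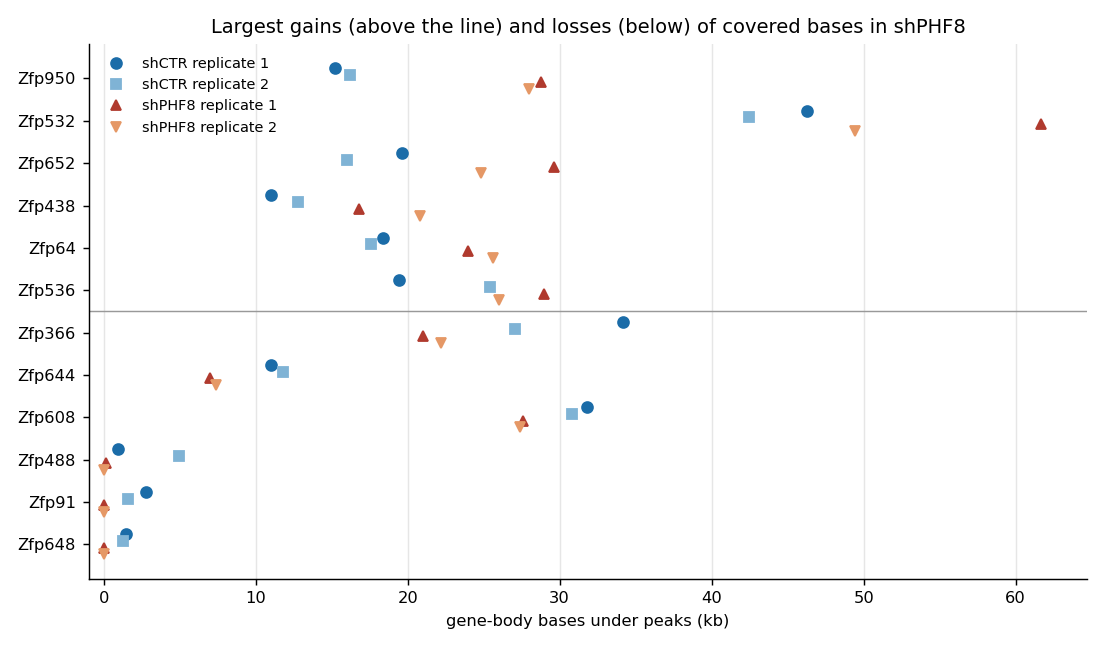
Covered bases of the gene body in kb (horizontal axis) in each library (circles and squares shCTR, triangles shPHF8) for the 6 isolated Zfp genes with the largest gain in shPHF8 and the 6 with the largest loss. The conditions do not overlap in any of the 12 by the rule that chose them, and Zfp532, Zfp64 and Zfp536 turn direction under scaling or at an equal covered length.

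A peak in both libraries of one condition and neither of the other was found in 5 members. Zfp473, Zfp592 and Zfp637 had it in shPHF8 (background 1.17% of all genes, here 3 of 141), and Zfp648 and Zfp91 in shCTR (background 2.08%, here 2 of 141). Zfp637 at chr6:117841180-117845956 had 0, 0, 2800 and 2956 covered bp of a 4.777 kb gene, reaching over 818 and 974 of the 974 bp of its last exon. Zfp473, whose human counterpart takes part in the processing of histone transcripts, had 0, 0, 5400 and 1800, and Zfp592 0, 0, 3200 and 2200. Zfp648 at chr1:154201187-154205689 had its last exon covered over 1489 and 1289 of 1650 bp in shCTR and not at all in shPHF8. With each library restricted to its widest peaks of equal total length, no member was marked in shPHF8 alone and 9 were marked in shCTR alone. That setting removes narrow peaks mainly from the longer shPHF8 lists, so both shifts follow in part from its construction. The share over all genes was not computed for it, and no conclusion about the members is drawn from these counts.

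**Figure D5:**
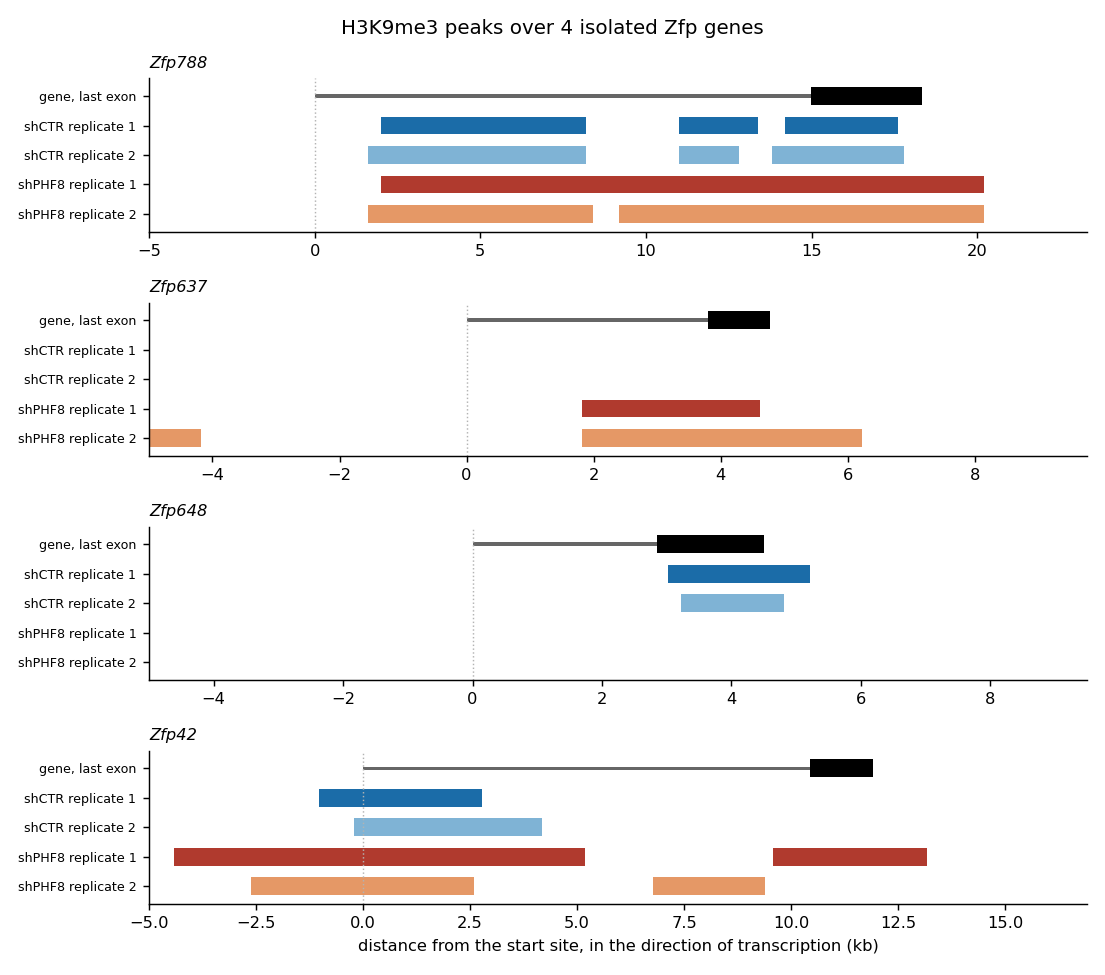
Peaks of each library (colored bars) over Zfp788, Zfp637, Zfp648 and Zfp42, against distance from the start site in kb, with the gene as a grey line and its last exon in black. Zfp788 is covered toward its last exon in all 4 libraries, Zfp637 has a peak over its last exon in shPHF8 alone, Zfp648 in shCTR alone, and Zfp42 is covered at its start site in all 4.

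Last exons were compared in the same way. Their covered bases were 1.096 times as high in shPHF8 (exact permutation p = 0.333), 0.831 times after scaling and 0.945 times at an equal covered length, and the ratio fell to 1.008 without shPHF8 replicate 1. The scaled value is lowered in part by construction, because an exon covered in full in all libraries becomes lower in shPHF8. Of the 56 last exons with a peak, 13 were more covered (23.2%, background 14.4%), 4 less (7.14%, background 7.55%) and 39 overlapped. Of 138 clustered Zfp last exons with a peak, 24 were more (17.4%) and 1 less covered (0.725%). After scaling, 8 of the 13 kept the call, and in all 8 were more and 33 less covered (14.3 and 58.9%, background 10.0 and 33.7%). Zfp46, a KRAB gene of 12 fingers, had 2238, 2038, 3980 and 3638 of 3980 bp covered. Zfp319 had 0, 1600, 2412 and 2400 bp, with a mean difference of 1606.0 bp that turned to -800 bp at an equal covered length. Zfp706 had the values given above, and Zfp473 had 0, 0, 2445 and 45 bp. Less covered were Zfp366 with 1380, 2836, 456 and 0 bp, Zfp648, Zfp619 with 3400, 4662, 3262 and 2862 of 5682 bp, and Zfp957 with 2115, 2115, 2069 and 2069 of 2115 bp. The last of these is a difference of 46 bp, under the 200 bp step of the peak lists.

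At start sites no member was more covered in shPHF8 (background 9.91% of windows with a peak) and 2 of 27 were less covered (7.41%, background 11.9%). Zfp488 had 1964, 1564, 1164 and 0 covered bp in the window and Zfp951 had 131, 131, 0 and 0. Summed over members the ratio was 0.844 (exact permutation p = 1). It rests on shCTR replicate 1, whose windows were 7.40% covered, and was 1.068 without it. With windows of 3 kb either side it was 1.117. Scaled to the same covered length it was 0.641, against 0.723 over all protein-coding genes.

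Among members with a known role in neural development, 9 of the 12 listed genes were members. Their bodies held a peak in 8 of 9, with 3 more covered in shPHF8 (Zfp536, Zfp423 and Zfp365) and 2 less (Zfp488 and Zfp521), of which the 3 lost the call after scaling and the 2 kept it. Over all genes 49.25% of bodies held a peak, and of these 27.8% were more and 12.8% less covered, so these few counts are read as values of single genes. Zfp423, a regulator of cerebellar and midline development with 27 fingers, had 10400, 7800, 13200 and 11400 covered bp of a body of 297.8 kb, and its mean difference of 3200.0 bp turned to -7700.0 bp at equal total length. Zfp365 had 15000, 14200, 17000 and 15400 covered bp, a mean difference of 1600.0 bp that turned to -2665.2 bp after scaling. Zfp462 with 34400, 40000, 38600 and 30800 bp, Zfp292 with 23800, 26200, 22600 and 25200, and Zfp503 with 2643, 1842, 1842 and 1842 overlapped between conditions, and Zfp703 had no peak. Of these 9 genes Zfp503 alone had a last exon covered in all 4 libraries.

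Among genes of pluripotency and imprinting, 4 of the 6 listed were members. Zfp445, which binds imprinting control regions, had 4279, 4079, 4691 and 4691 of 5079 bp of its last exon covered, more in shPHF8 by a mean of 512 bp, which became -704.2 bp after scaling. Zfp57, which has the same known role, had no covered base in any library. The body of Zfp42 had 2780, 4180, 7518 and 5180 covered bp, higher in both shPHF8 libraries, also after scaling but not at equal total length. Zfp281 overlapped between conditions.

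All 7 general regulators listed were members, and none had a covered base in the last exon, as was the case for 82.75% of all genes. Zfp143, a promoter-binding activator, had 2200, 2600, 4600 and 4200 covered bp in its body and Zfp638 3400, 1600, 7800 and 3800, both more covered in shPHF8. After scaling Zfp143 kept the call and Zfp638 did not, and at equal total length the mean of Zfp143 turned to -2400.0 bp. Zfp644, given above, was less covered. Zfp148 had 13400, 9000, 15400 and 8400 bp and Zfp451, a SUMO ligase, 4800, 4400, 4600 and 5600. Zfp217 was marked in shPHF8 replicate 2 alone with 1200 bp, and Zfp410, an activator of the chromatin remodeler Chd4, had no peak. Of genes with other roles, 5 of the 6 listed were members. Zfp326, an RNA-binding protein, had 1400, 1200, 3400 and 3400 covered bp, a call that held after scaling but not at equal total length. Zfp207 had 733 bp in shCTR replicate 2 alone, and Zfp106 and Zfp750 had none. None of the 5 had a covered base in the last exon or start-site window, and most genes had none either.

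The machinery that places the mark was counted as background to these genes. Of 19 genes of co-repressors and H3K9 methyltransferases, 10 had a peak in the body in at least 1 library (49.25% over all genes), and of these 1 was more and 2 were less covered in shPHF8 (27.8 and 12.8% over all genes). A start-site window with a peak in at least 1 library was found in Setdb1, Atf7ip, Fam208a, Morc2a and Morc3, and in 3 of these 5 it was present in all 4 libraries. Over all genes 17.04% of windows held a peak in at least 1 library and 6.1% in all 4. With 19 genes, these counts are read as values of single genes. None of the 19 windows was more or less covered in shPHF8 by the rule used here.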

How the data were processed

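Peak lists of the 4 H3K9me3 ChIP libraries were used, and the 2 inputs were not analysed here. Per the paper's methods the authors aligned reads to mm10 with SOAPaligner/SOAP2, while the submitters' processing notes name Bowtie2 2.3.5.1, SAMtools 1.9 and deepTools. They called broad peaks with SICER2. Window, gap, false discovery rate and use of the input are not given in the sources used here. The deposited lists hold start and end positions and no height, score or read count, so depth enters through the number and width of peaks.

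Starts were read as 0-based and ends as inclusive, so that all widths were whole steps of 200 bp. Bases under peaks were counted per library over gene bodies, windows of 1 kb either side of the start site and last exons (GENCODE M21 on GRCm38.p6, 20722 genes with a coding transcript, 85 without one left out of these counts), in Python 3.11.15 with numpy 2.4.6, scipy 1.17.1 and pysam 0.24.0. Counting and calls were checked on simulated peaks against bedtools 2.31.1. Fingers, KRAB boxes and non-unique windows came from the genome sequence.

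Members and gene lists were chosen with earlier results of these data known. Genes named are the 8 most covered bodies, the 6 largest gains and losses of bodies and the 4 of start sites and last exons among those whose conditions do not overlap, genes marked in one condition, and a list of known roles. Zfp genes outside this rule were named after their values were seen. Alternatives were scaling, equal total length, peaks under 1000 bp left out, peaks joined, other windows, exons, thresholds and isolation rules, and each library left out. Same-numbered replicates did not deviate together over the member bodies (Pearson r = -0.018 over 95 bodies), and the libraries were treated as unpaired. This value cannot exclude that libraries of the same number shared a culture or batch.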

Additional observations from a re-analysis of the deposited data

How the results depend on the processing

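Over 15 results and 175 alternatives, 131 values stayed on the same side of 1 for a ratio or within 1.5 times the count as reported. With each library scaled to the same covered length, the body ratio was 0.884 and the last-exon ratio 0.831. More covered bodies numbered 13 and less covered 29, and last exons 8 more and 33 less, with the shares over all genes given above. Less covered start sites numbered 5 (18.5% of windows with a peak, against 34.8% over all genes). With each library restricted to its widest peaks of equal total length the ratios were 0.909 and 0.945, and 19 bodies were more and 19 less covered. Less covered start sites numbered 6 (23.1%, against 19.8% over all genes). Last exons were 7 more covered (13.0%, against 8.75%) and 5 less covered (9.26%, against 14.5%). Genes marked in shPHF8 alone numbered 0, and those in shCTR alone 9. The counts of genes marked in 1 condition follow in part from the removal of narrow peaks, mainly from the shPHF8 lists. Windows of 3 kb gave a start-site ratio of 1.117 and 8 more covered windows, and windows of 200 bp gave 1 less covered. A gap of at least 500 bp between conditions left 0 less covered start sites and 8 more and 2 less covered last exons. Without members that had a neighbour, 8 last exons were more covered. At 80% coverage, 1 body was covered in all 4 libraries. For these other settings, and with a library left out, the share over all genes was not computed. Nothing about the members is read from those counts.

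Leaving out each replicate gave 12 to 21 less covered bodies, a start-site ratio of 0.698 to 1.068 (1.068 without shCTR replicate 1), 2 to 6 more and 3 to 9 less covered start sites, 14 to 22 more and 6 to 8 less covered last exons, 4 to 6 genes marked in shPHF8 alone and 3 to 6 in shCTR alone. These counts rise because a call then needs fewer libraries. The largest counts came without shPHF8 replicate 1 for less covered bodies (21), without shCTR replicate 2 for less covered start sites (9) and genes marked in shCTR alone (6), and without shPHF8 replicate 2 for more covered last exons (22) and genes marked in shPHF8 alone (6). Without shPHF8 replicate 1 the last-exon ratio was 1.008.

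Among the genes named for the largest gains and losses, 5 of 176 alternatives turned the direction. By the rule that chose these genes, leaving out a library cannot turn it, and scaling cannot turn a loss. Equal total length shortens mainly the shPHF8 lists, so it too is unlikely to turn a loss. The 176 alternatives therefore overstate how far the direction was tried. All 5 turns were in genes with a gain. After scaling, Zfp532 stood at -2702.1 bp and Zfp536 at -1730.3 bp, and at an equal covered length Zfp64 stood at -2500.0 bp, Zfp536 at -11200.0 bp and Zfp319 at -800 bp. Of all 39 more covered bodies the mean difference changed sign in 13 after scaling and in 12 at an equal covered length, and of the 13 more covered last exons in 3 and 3, which includes other named genes such as Zfp951, Zfp958, Zfp189, Zfp365, Zfp143, Zfp423 and Zfp445. Whether libraries of the same replicate number belong together is not known. Compared within replicate numbers, as a block, they gave 12 less covered bodies, a body ratio of 1.163 and a last-exon ratio of 1.092. Counts of covered or unmarked genes cannot be changed by scaling or a block. Causes were not tested beyond the construction of each alternative. Without heights or depth in the lists, a position without a peak shows no call, not absence of the mark.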
